A study of Mus musculus with 8 samples.

Results

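The 10 genes described here encode the enzymes and the transcription factor of fatty acid and triglyceride synthesis: Srebf1, Acly, Acss2, Me1, Acaca, Fasn, Gpam, Lpin1, Dgat1 and Dgat2. They were chosen by name, and each symbol matched 1 Ensembl gene ID among the 54141 rows of the deposited gene table. All 10 had a valid estimate in every library and were among the 16132 genes tested. Epithelium of the distal mouse colon, detached with EDTA and strained, gave RNA-seq libraries: 4 Degs2_KO (genotype Degs2 homozygous mutant) and 4 WT (wild type), both on the c57bl6/j background. Degs2 is the enzyme that adds the extra hydroxyl group of phytoceramide, a sphingolipid of the gut lining. The sources used here do not give the age and sex of the mice, the stretch of Degs2 that the mutation removes or whether each library was a separate mouse. The p-values therefore speak of library-to-library spread, part of which may be technical.

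Cells make fatty acids from acetyl-CoA in the cytosol. Acetyl-CoA comes from citrate or from acetate, is carboxylated to malonyl-CoA and is built into palmitate with NADPH as the reductant. Acyl chains are then placed on glycerol phosphate in successive steps that end in triglyceride, and the transcription factor SREBP-1 drives many genes of the pathway. The colon epithelium sits beside bacterial acetate and butyrate, and acyl-CoA is also a substrate of ceramide synthesis.

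Libraries held about 32830000 to 49820000 fragments, and totals as deposited, after scaling, were between 41622927 and 44606092. Degs2 lay between 47.7 and 65.9 CPM in Degs2_KO libraries and between 106 and 151 CPM in WT libraries; CPM are counts scaled to a common library size (TMM). The log2 fold change of Degs2 was -1.07 ± 0.15 (SE), with an edgeR adjusted p of 0.796. Epithelial markers (Epcam, Krt8 and 5 others) summed to between 11000 and 12400 CPM in Degs2_KO and between 10400 and 13300 CPM in WT. Of 7 adipocyte markers, a cell type rich in these enzymes, Cfd and Lep were at 0 in all 8 libraries and the whole list summed to at most 0.0719 CPM in Degs2_KO and 0.169 CPM in WT. Degs2_KO replicate 3 and WT replicate 1 stood apart from the other libraries on the first principal component of all tested genes (-59.1 and -53.9, against -1.09 to 43 in the other 6). The same libraries were lowest in 5 posterior gut markers, led by Hoxb13 (140 and 143 CPM summed, against 363 to 485). They were highest in the sum of 8 markers of the small intestine and proximal gut (447 and 372 CPM, against 72.3 to 217). Fabp2 makes up nearly all of that sum. At far lower levels, Sis and Fabp1 were also highest in these libraries, but Gata4, Mttp, Apoa1, Apoa4 and Lct were highest in others. In Degs2_KO replicate 3 and WT replicate 1, 7 absorptive colonocyte markers summed highest too (14900 and 14100 CPM, against 7450 to 11400). This came through Car1 (6570 and 6180 CPM, against 522 to 1940), while Slc37a2 of the same list was lowest there (32.1 and 85.8 CPM, against 208 to 554). The pair was not alike in goblet cell markers, whose sum over 5 measured genes was lowest in Degs2_KO replicate 3 (5740 CPM) and highest in WT replicate 1 (29200 CPM), with Muc2 at 522 and 24600 CPM. The fold changes of the 10 genes were therefore also fitted without this pair.

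None of the 10 genes passed the test between the genotypes. With p adjusted by Benjamini-Hochberg over the whole table, the edgeR quasi-likelihood test called 0 of 10 at 0.05, where the background over all 16132 tested genes was 0.0% (0 genes), and the adjusted p of every member was 0.9996. Before adjustment, 0.05 was passed by 0 members, against 183 genes or 1.13% of all tested. That share is below what a threshold of 0.05 lets through when nothing differs. Among other methods, limma-trend called 0 genes, and DESeq2 called 2, Degs2 and Dlk1, neither of them a member. The Degs2_KO and WT ranges overlapped for all 10 members; they did not for 1.04% of tested genes, 0.484% with Degs2_KO higher and 0.558% with Degs2_KO lower. In log2 fold change of Degs2_KO over WT, 5 members were above 0 and 5 below, from -0.19 to 0.13, with a median of -0.006 beside -0.007 for all tested genes. A missed threshold does not show equal levels, so the 95% intervals matter: they lay within 1.5-fold for 7 of 10 members, compared with 60.4% of all tested genes. They lay within 2-fold for 9, all but Me1, compared with 81.9% of all tested genes. Without Degs2_KO replicate 3 and WT replicate 1, edgeR again called 0 members (adjusted p 0.999 for each), and the median was -0.016. In that fit 650 of 16214 tested genes, 0 of them members, were under 0.05 before adjustment, so the pair weighs on the count above.

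**Figure D1:**
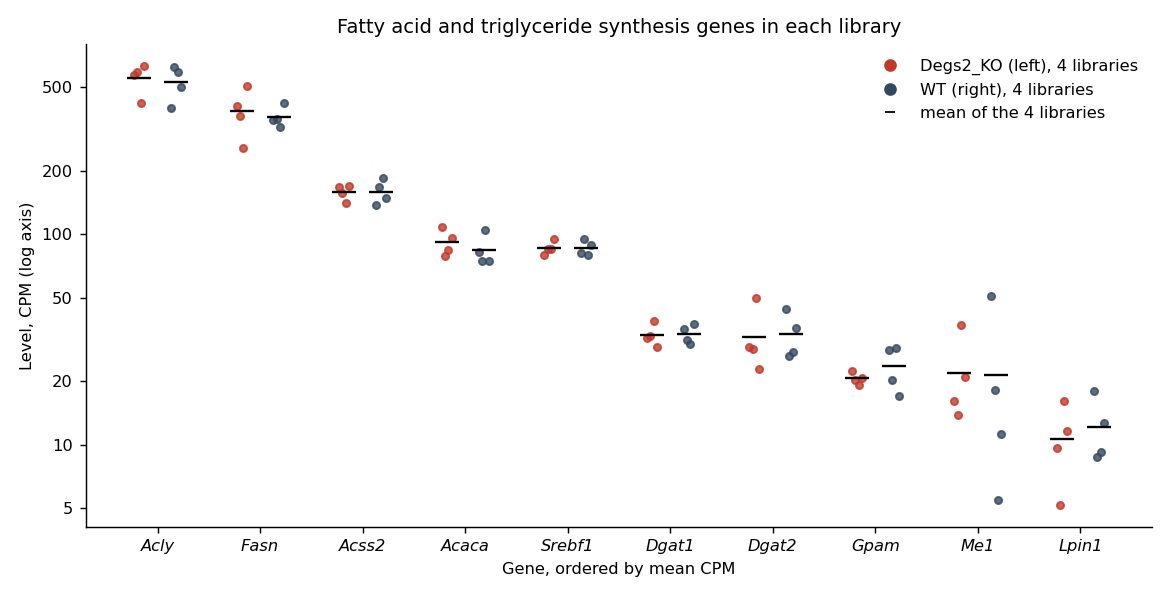
Level of each of the 10 genes in CPM on a log axis, with 1 point per library, Degs2_KO to the left of WT, and a line at the mean of 4 libraries. Acly and Fasn lie highest, Lpin1 lowest, and the 2 genotypes overlap for every gene, with the widest scatter for Me1, from 5.49 to 50.6 CPM.

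Srebf1 encodes SREBP-1, the factor of the pathway, and was its steadiest member. It had 79.4, 85.2, 84.7 and 95.2 CPM in Degs2_KO replicates 1 to 4 and 80.9, 94.5, 79.7 and 88.9 CPM in WT replicates 1 to 4. The highest library was only 1.2 times the lowest, and the ranges of the genotypes nearly coincided. Its log2 fold change was 0.0016 ± 0.09 (SE), with a 95% interval from -0.19 to 0.19. The SD of its log2 CPM over the 8 libraries, 0.10, exceeded that of 13.9% of tested genes. Srebf1 (ENSMUSG00000020538) is a minus-strand gene of chromosome 11, from 60199089 to 60222581 (GRCm38); 109 bases of its exons overlap Rai1 on the other strand, and counting over the gene does not separate its start sites and isoforms.

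Among the genes that supply acetyl-CoA, Acly, the ATP citrate lyase that splits cytosolic citrate, was the most abundant member. It had 571, 589, 417 and 628 CPM in Degs2_KO replicates 1 to 4 and 395, 619, 590 and 498 CPM in WT replicates 1 to 4. The lowest value in each genotype came from the pair of libraries that stood apart, and the ranges overlapped almost entirely. The log2 fold change was 0.07 ± 0.17 (95% interval -0.32 to 0.46), and 0.07 ± 0.11 without that pair. Acly (ENSMUSG00000020917) spans 100476353 to 100528000 on chromosome 11, minus strand.

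Acss2, the cytosolic and nuclear synthetase that makes acetyl-CoA from acetate, had 167, 156, 140 and 169 CPM in Degs2_KO and 138, 167, 184 and 149 CPM in WT. Its lowest libraries were also Degs2_KO replicate 3 and WT replicate 1, and its means were 158 ± 13.1 CPM and 159 ± 20.3 CPM (Degs2_KO and WT; SD, n = 4 each). A log2 fold change of -0.01 ± 0.11 had an interval from -0.26 to 0.23, or 0.837-fold to 1.17-fold. Acss2 (ENSMUSG00000027605) is on chromosome 2, plus strand, from 155517948 to 155585724. Its annotated exons share 395 bases with Gss, a well expressed gene on the other strand, 197 with Ggt7 and 335 with Acss2os, and the sources used here do not say if reads were counted by strand.

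Me1, the cytosolic malic enzyme that yields NADPH, varied most. It had 16.1, 13.9, 37.2 and 20.9 CPM in Degs2_KO and 50.6, 18.2, 5.49 and 11.2 CPM in WT. WT held both the highest and the lowest library, 9.22-fold apart, and all Degs2_KO libraries fell between them. The log2 fold change was 0.04 ± 0.62, with an interval from -1.35 to 1.44 (0.391-fold to 2.71-fold). Without the pair that stood apart it was 0.55 ± 0.39 (17 ± 3.55 CPM in Degs2_KO and 11.6 ± 6.36 CPM in WT; SD, n = 3 each), again not past the threshold. The SD of log2 CPM, 0.99, exceeded that of 97.2% of tested genes. Me1 (ENSMUSG00000032418) lies on chromosome 9, minus strand, from 86581371 to 86695953.

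The steps from acetyl-CoA to palmitate are those of Acaca, acetyl-CoA carboxylase 1, and Fasn, fatty acid synthase. Acaca had 108, 78.6, 84.2 and 95.9 CPM in Degs2_KO and 82.3, 74.5, 104 and 74.7 CPM in WT. Degs2_KO replicate 1 and WT replicate 3 were the highest. Its log2 fold change of 0.13 ± 0.14 was the highest of the 10 (interval -0.18 to 0.44) and stayed above 0 in all 18 alternatives, between 0.05 and 0.25, with none past the threshold.

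Fasn had 404, 362, 257 and 504 CPM in Degs2_KO and 349, 350, 323 and 418 CPM in WT. Degs2_KO held both the highest and the lowest library, and its SD, 102 CPM around a mean of 382, was wider than the 40.6 CPM around 360 in WT (n = 4 each). The log2 fold change was 0.08 ± 0.19 (interval -0.34 to 0.51). It was 0.22 ± 0.16 without Degs2_KO replicate 3 and WT replicate 1. Acaca (ENSMUSG00000020532, plus strand, 84129672 to 84401651) and Fasn (ENSMUSG00000025153, minus strand, 120805846 to 120824547) are both on chromosome 11, as are Acly and Srebf1.

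Glycerolipid assembly starts with Gpam, the mitochondrial glycerol-3-phosphate acyltransferase. It had 22.5, 20.4, 19.2 and 20.7 CPM in Degs2_KO and 28.2, 20.3, 28.7 and 17.1 CPM in WT. The 4 Degs2_KO libraries lay close together inside the WT range, with an SD of 1.36 CPM compared with 5.81 CPM in WT; a difference in spread was not tested. Its log2 fold change, -0.19 ± 0.17 (interval -0.57 to 0.19), was below 0 in all 18 alternatives and was -0.05 ± 0.18 without the pair. Gpam (ENSMUSG00000024978) is on chromosome 19, minus strand, from 55067268 to 55127238.

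Lpin1, a phosphatidate phosphatase that makes diacylglycerol, was the least abundant member. It had 9.7, 5.19, 16.2 and 11.6 CPM in Degs2_KO and 18.1, 8.71, 9.22 and 12.7 CPM in WT. The 2 highest values were again those of Degs2_KO replicate 3 and WT replicate 1, and Degs2_KO replicate 2 held the lowest, 219 scaled counts. A log2 fold change of -0.19 ± 0.35 had an interval from -0.98 to 0.60. Lpin1 (ENSMUSG00000020593, 16535669 to 16610966, minus strand) is on chromosome 12, the chromosome of Degs2 (108678711 to 108702315).

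The last step, from diacylglycerol to triglyceride, is carried out by Dgat1 and Dgat2, enzymes of unrelated families. Dgat1 had 32.0, 32.9, 38.6 and 29.1 CPM in Degs2_KO and 35.5, 31.6, 30.2 and 37.6 CPM in WT, with a log2 fold change of -0.02 ± 0.11 (interval -0.27 to 0.22). Dgat2 had 29.2, 28.5, 49.5 and 22.9 CPM in Degs2_KO and 43.9, 26.5, 27.5 and 36.0 CPM in WT, with one of -0.04 ± 0.25 (interval -0.62 to 0.53). Dgat1 stayed between 29.1 and 38.6 CPM in all libraries, while Dgat2 spanned 2.16-fold with its peaks in Degs2_KO replicate 3 and WT replicate 1. Dgat1 (ENSMUSG00000022555) is on chromosome 15 from 76502015 to 76511953 and Dgat2 (ENSMUSG00000030747) on chromosome 7 from 99153658 to 99182719, both on the minus strand.

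**Figure D2:**
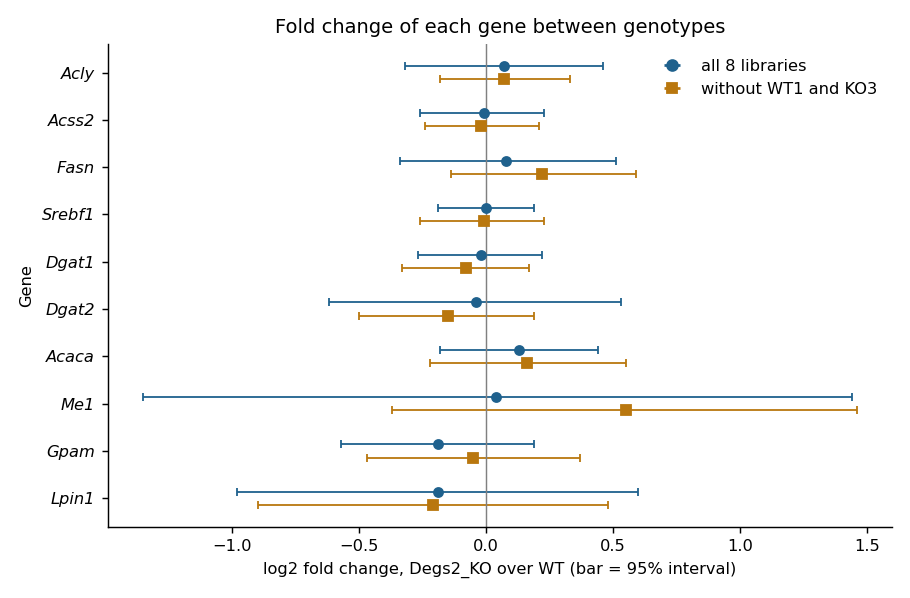
Log2 fold change of Degs2_KO over WT for each gene, with 95% intervals, from all 8 libraries (circles) and without Degs2_KO replicate 3 and WT replicate 1, drawn as KO3 and WT1 (squares). Every interval crosses 0, the narrowest being that of Srebf1 (-0.19 to 0.19) and the widest that of Me1 (-1.35 to 1.44).

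Levels of different genes can be set side by side only per length, here as CPM per kb of the principal transcript, averaged over the 8 libraries. Acly led with 123 CPM per kb, above 96.6% of tested genes, followed by Acss2 at 54.1, Fasn at 36.9, Srebf1 at 20, Dgat1 at 17.7, Dgat2 at 14.6, Acaca at 9.23, Me1 at 6.60, Gpam at 3.59 and Lpin1 at 2.05. Acly and Acss2, which supply acetyl-CoA, thus stood above Acaca and Gpam per length. Gpat4, of the same step as Gpam but not a member, was at 14.4 CPM per kb. Acly was above Acss2 in 8 of 8 libraries (1.92-fold to 2.52-fold) and Fasn above Srebf1 in 8 of 8. Srebf1 exceeded Dgat1 in 7 of 8, Dgat1 exceeded Dgat2 in 6 of 8 and Acaca exceeded Me1 in 6 of 8, and these neighbours overlapped in range. With all annotated exons merged as the length, Acss2 was at 15.6 and Fasn at 33.9 CPM per kb, which turns their order round, as it does that of Acaca (5.14) and Me1 (5.64); Dgat1 was then at 10.9 and Lpin1 at 1.18.

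The spread between libraries split the members along another line than genotype. Me1, Lpin1 and Dgat2 had their 2 highest libraries in Degs2_KO replicate 3 and WT replicate 1, and Acly and Acss2 had their 2 lowest there. Over all tested genes this pair held the 2 highest values for 17.8% and the 2 lowest for 16.6%, so 3 of 10 and 2 of 10 members are not far from that background. Relative to the gene's median over the 8 libraries, on the log2 scale, Degs2_KO replicate 3 and WT replicate 1 were at 1.12 and 1.56 for Me1, 0.61 and 0.77 for Lpin1, and 0.78 and 0.61 for Dgat2. They were at -0.48 and -0.55 for Acly and -0.20 and -0.23 for Acss2. Fasn was low in Degs2_KO replicate 3 alone (-0.47; WT replicate 1 at -0.03), and Srebf1 deviated by at most 0.16 in any library.

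**Figure D3:**
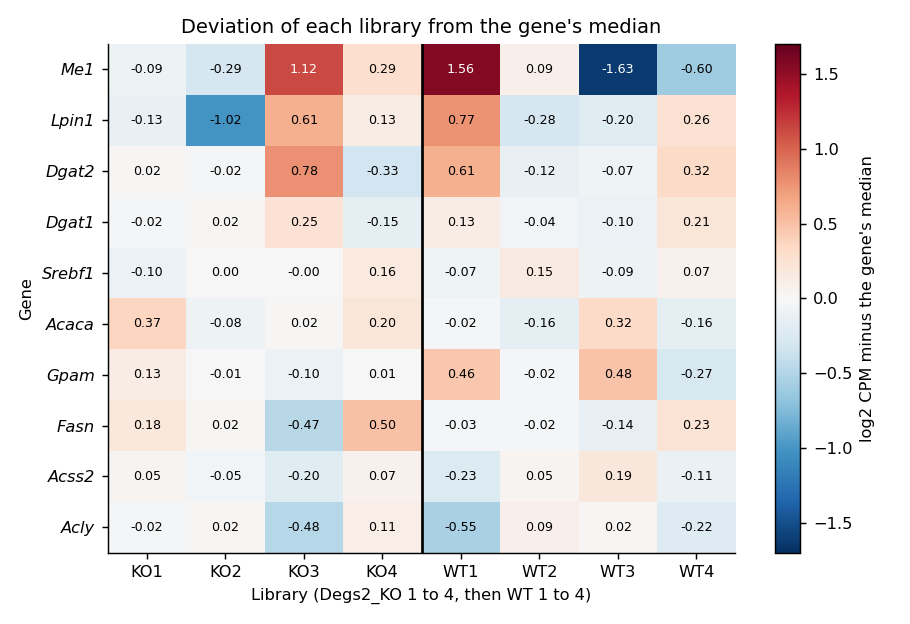
Log2 CPM of each gene in each library minus the gene's median over the 8 libraries, with Degs2_KO replicates 1 to 4 (KO1 to KO4) left of WT replicates 1 to 4. Me1, Lpin1 and Dgat2 are above their medians in KO3 and WT1 and Acly and Acss2 below theirs, while no row separates the genotypes.

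Markers of gut position had already been used above to describe Degs2_KO replicate 3 and WT replicate 1 as apart. Their going with this split is therefore not a separate result. The proximal markers summed to 447 CPM in Degs2_KO replicate 3, 372 in WT replicate 1 and 217 in WT replicate 4, and Dgat2 was highest in the same order, at 49.5, 43.9 and 36.0 CPM. Acly was lowest in these libraries, at 417, 395 and 498 CPM, against 571 to 628 CPM in the other 5. Lpin1 (16.2, 18.1 and 12.7 CPM) and Dgat1 (38.6, 35.5 and 37.6 CPM) were also highest there, and Acss2 (140, 138 and 149 CPM) was also lowest. How many of all tested genes do the same was not counted. Me1 did not follow in WT replicate 4, where it had 11.2 CPM. Fibroblast markers were also highest in WT replicate 4 (30.8 CPM over 6 genes, led by Dcn) and T cell markers in Degs2_KO replicate 3 and WT replicate 1 (16.4 and 19.0 CPM over 6 genes, against 3.32 to 11.8). The part of position, of other cells or of sampling in these levels was not tested; in bulk RNA, fewer cells of a type and less RNA per cell cannot be told apart. These genes and libraries were picked after their values were seen.

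**Figure D4:**
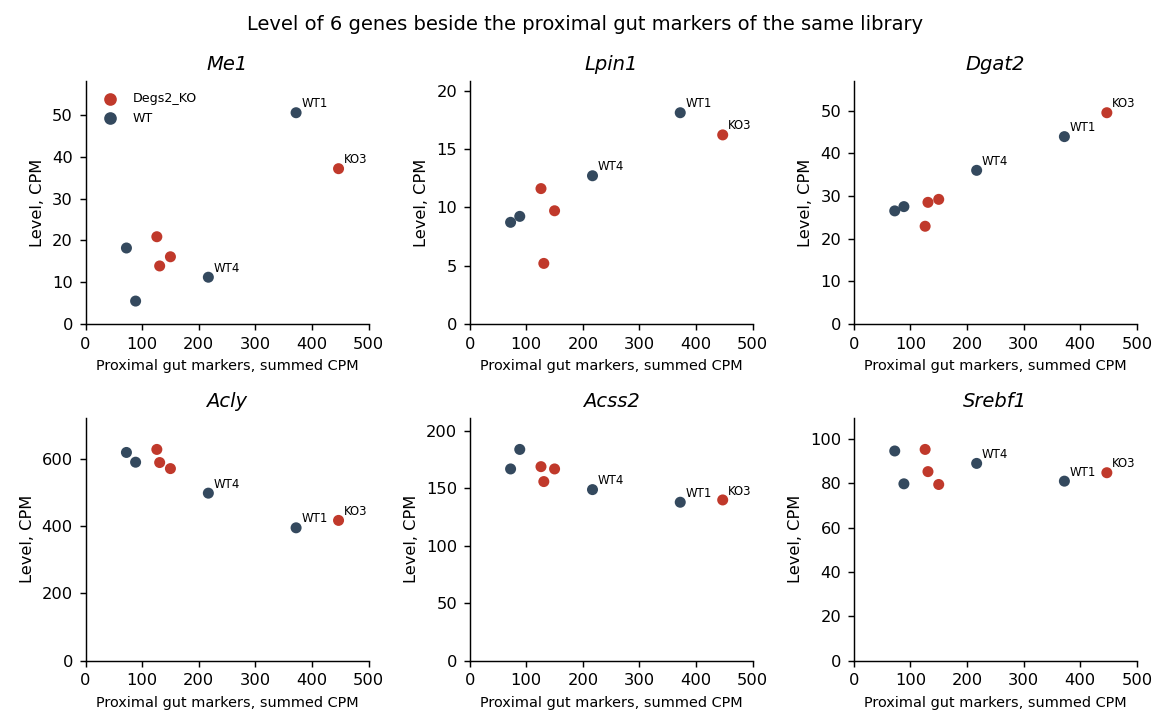
Level in CPM of 6 genes against the summed CPM of 8 small intestine and proximal gut markers in the same library. Fabp2 makes up nearly all of the sum. There is 1 point per library, with KO3, WT1 and WT4 labelled. Dgat2 (49.5, 43.9 and 36.0 CPM) and Lpin1 are highest and Acly and Acss2 lowest in the 3 labelled libraries, whereas Srebf1 stays between 79.4 and 95.2 CPM throughout.

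Promoter windows are shown to set side by side the letters of the genes that had their 2 lowest libraries in the pair (Acly and Acss2) and of those with a window that had their 2 highest there (Me1 and Lpin1). Each runs 5′ to 3′ on the gene's strand from 250 bases before to 50 after a RefSeq transcription start (GRCm38.p6). Capitals mark GGGCGG, the core of the GC box that Sp1 binds, and CCAAT, the box that NF-Y binds, each on either strand.
Acly: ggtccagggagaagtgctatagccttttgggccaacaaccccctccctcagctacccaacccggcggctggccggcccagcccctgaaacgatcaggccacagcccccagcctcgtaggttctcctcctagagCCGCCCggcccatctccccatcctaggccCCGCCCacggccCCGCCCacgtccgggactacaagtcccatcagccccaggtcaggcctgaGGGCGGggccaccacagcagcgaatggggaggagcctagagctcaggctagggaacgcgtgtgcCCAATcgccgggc
Acss2: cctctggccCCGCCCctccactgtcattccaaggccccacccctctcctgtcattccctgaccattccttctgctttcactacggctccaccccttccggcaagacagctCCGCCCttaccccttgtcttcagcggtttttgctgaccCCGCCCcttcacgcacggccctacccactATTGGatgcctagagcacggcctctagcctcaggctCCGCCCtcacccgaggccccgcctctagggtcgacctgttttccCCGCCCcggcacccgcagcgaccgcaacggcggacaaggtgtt
Me1: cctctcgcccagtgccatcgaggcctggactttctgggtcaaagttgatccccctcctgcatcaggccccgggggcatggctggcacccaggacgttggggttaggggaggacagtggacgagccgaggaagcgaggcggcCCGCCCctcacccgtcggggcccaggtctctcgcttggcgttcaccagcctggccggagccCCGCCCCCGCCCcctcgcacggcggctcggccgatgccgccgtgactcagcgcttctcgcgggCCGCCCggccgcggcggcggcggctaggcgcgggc
Lpin1: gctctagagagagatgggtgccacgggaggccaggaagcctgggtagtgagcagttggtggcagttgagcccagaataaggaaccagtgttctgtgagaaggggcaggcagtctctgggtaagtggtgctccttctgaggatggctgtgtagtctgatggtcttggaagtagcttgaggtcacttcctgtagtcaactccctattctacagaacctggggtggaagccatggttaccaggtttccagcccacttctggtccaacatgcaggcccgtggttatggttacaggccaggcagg
Windows are chr11:100527951-100528250 (minus) for Acly, chr2:155517793-155518092 (plus) for Acss2, chr9:86695865-86696164 (minus) for Me1 and chr12:16610917-16611216 (minus) for Lpin1. GGGCGG occurred 4 times in the Acly window, 5 times in that of Acss2 and 4 times in that of Me1, with no overlaps, and not in that of Lpin1. CCAAT occurred once each in the windows shown of Acly and Acss2. Me1 has a second window, not shown (chr9:86687228-86687527, minus), with 1 CCAAT and no GGGCGG. Over 12 windows of the 8 members with an entry, GGGCGG was in 6 and CCAAT in 7, where 35.7% and 37.4% of all 32851 windows hold them. Srebf1, Me1 and Gpam each have more than 1 of the 12 windows. The only window of Acaca (chr11:84195188-84195487, plus) lies inside the gene, which starts at 84129672. Neither TCACNCCAC, a form of the sterol regulatory element, nor the E-box CACGTG was found in the 12 windows on either strand (1.24% and 7.15% of all windows); this says only that those letters are not in these stretches. Dgat1 and Dgat2 have no window here.

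Most members were set beside genes of the same family or the same reaction, called related genes here, and the member often held the smaller share. Some related genes act in mitochondria or, as Srebf2, in another pathway. A smaller share therefore does not make a member the minor gene of its own step. As a share of the summed CPM per kb of the related genes, averaged over the 8 libraries, Srebf1 held 23.5% beside Srebf2, the SREBP of cholesterol synthesis. Me1 held 9.24% beside the mitochondrial malic enzymes Me2 and Me3, or 18.8% with merged exons as the length, and Lpin1 held 9.16% beside Lpin2 and Lpin3. Gpam held 16.3% of the glycerol-3-phosphate acyltransferases, where Gpat4 had 65.3% and Gpat2 was at 0 in all libraries. Acaca was the major carboxylase with 80.5% beside Acacb, the mitochondrial form. Acss2 held 61.7% beside the mitochondrial Acss1, but 34.8% with merged exons as the length. Dgat2 held 44.5% beside Dgat1.

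These shares did not separate the genotypes. In percent, Dgat2 held 43.2, 42.0, 51.7 and 39.7 of the Dgat level in Degs2_KO and 50.8, 41.1, 43.2 and 44.4 in WT. Dgat2 exceeded Dgat1 per length only in Degs2_KO replicate 3 and WT replicate 1. The largest difference in share was that of Gpam, 15% ± 1.99 in Degs2_KO and 17.6% ± 4.17 in WT (SD, n = 4 each), and an exact 2-sided permutation test over 70 assignments gave p = 0.314. Over the 7 groups of related genes the exact p lay between 0.314 and 0.914, all 0.914 after Benjamini-Hochberg adjustment. Related genes also peaked in the pair that stood apart: Lpin2 had 77.4 and 84.1 CPM in Degs2_KO replicate 3 and WT replicate 1, with 24.1 to 47.4 elsewhere, and Gpat3 had 22.5 and 16.4 CPM, with 7.48 to 14.8 elsewhere. Acacb was highest in WT replicate 1 (34.8 CPM) and WT replicate 4 (25.6 CPM). Lpin3 and Gpat4 were steadier, at 35.1 to 52.4 and 72.9 to 82.9 CPM. Lpin2, Gpat3, Acacb, Lpin3 and Gpat4 were named after their values were seen.

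**Figure D5:**
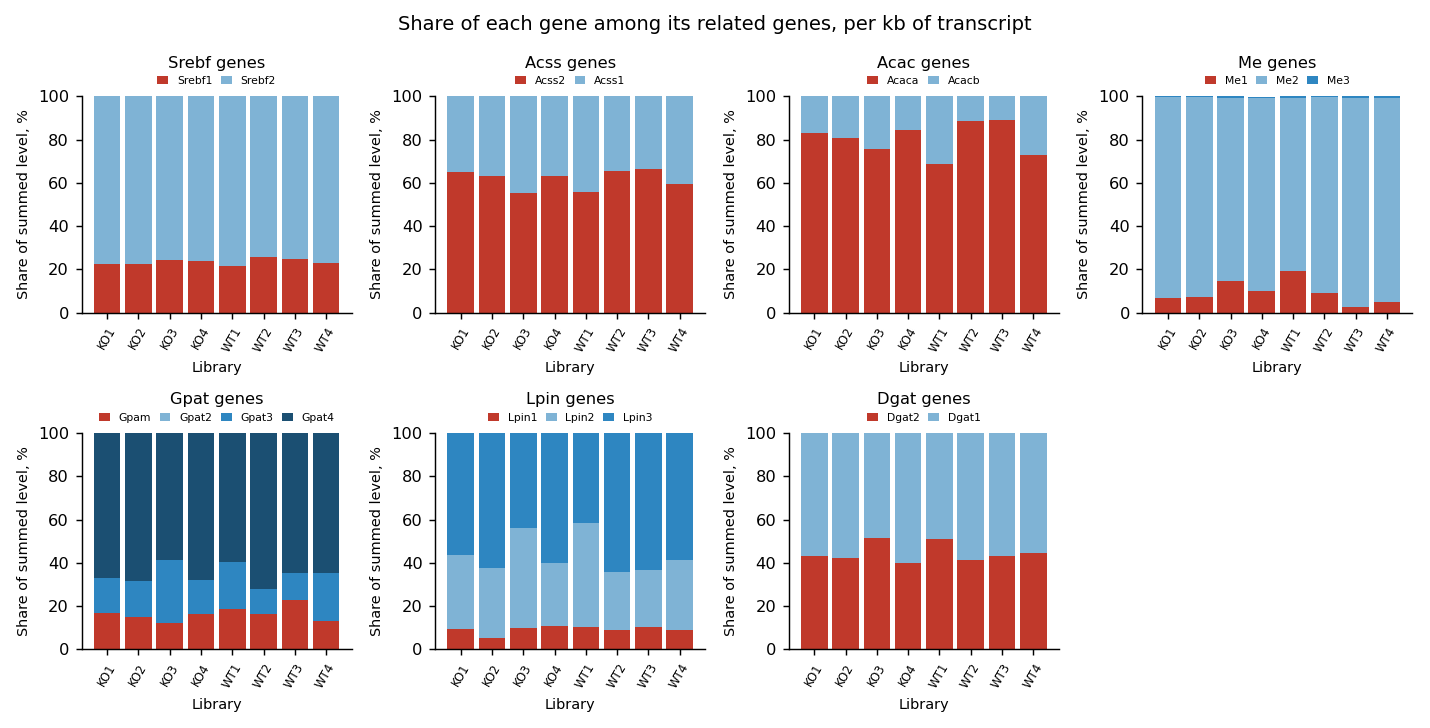
Share of each gene in the summed CPM per kb of its related genes, in percent, as stacked bars per library with Degs2_KO replicates left of WT replicates. Srebf2, Me2, Lpin3 and Gpat4 hold the largest mean shares of their groups and Acaca and Acss2 those of theirs, and Dgat2 passes 50% only in KO3 and WT1 (51.7% and 50.8%).

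The rest of the pathway, in 7 lists of genes, gave no gene past edgeR's adjusted threshold in either direction, as for all tested genes (0.0%). The examples given are the 3 genes of each list with the highest mean CPM, not corrected for length, each with an adjusted p of 0.9996. Of 10 tested genes of SREBP processing and lipogenic transcription factors, 3 had a log2 fold change above 0 and 7 below, with a median of -0.05. Srebf2 was at 0.03 ± 0.10, Mbtps1, a protease that cleaves SREBP, at -0.06 ± 0.08 and Insig1, which holds SREBP in the endoplasmic reticulum, at -0.10 ± 0.29. Insig1 ranged from 71.7 to 160 CPM in Degs2_KO and from 83.1 to 188 CPM in WT.

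For citrate, acetyl-CoA and NADPH supply, 8 of 10 tested genes were above 0 and 2 below (median 0.032). Pdha1, of pyruvate dehydrogenase, was at 0.04 ± 0.08, Pgd, an NADPH-producing enzyme of the pentose phosphate pathway, at 0.01 ± 0.12 and Mdh1, the cytosolic malate dehydrogenase, at 0.11 ± 0.07. Acacb, its partners and AMPK subunits, the kinase that inhibits the carboxylases, had 4 of 7 above 0 (median 0.005), with Prkaa2 at -0.04 ± 0.16, Prkab1 at 0.03 ± 0.13 and Prkaa1 at 0.01 ± 0.12. Thrsp did not pass the count filter.

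Mitochondrial fatty acid synthesis had 1 of 7 genes above 0 and 6 below (median -0.043), within -0.17 to 0.02. Its acyl carrier protein Ndufab1 was at 0.02 ± 0.07, Mecr, the enoyl reductase, at -0.05 ± 0.14 and Oxsm, the condensing enzyme, at -0.09 ± 0.12. Of the long-chain acyl-CoA synthetases, which activate fatty acids for lipid assembly, 3 of 4 tested were above 0 (median 0.127), with Acsl3 at -0.09 ± 0.12, Acsl5 at 0.10 ± 0.07 and Acsl1 at 0.15 ± 0.14. The remaining one, Acsl4, singled out after its values were seen, had 29.8, 27.2, 29.7 and 35.1 CPM in Degs2_KO and 26.3, 24.6, 24.1 and 25.6 CPM in WT. All Degs2_KO libraries were above all WT libraries, as for 0.484% of tested genes in that direction, but its log2 fold change of 0.28 ± 0.09 did not pass (edgeR adjusted p = 0.9996).

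Other glycerolipid enzymes had 7 of 12 genes above 0 (median 0.008). Gpd1l, similar to glycerol-3-phosphate dehydrogenase, was at 0.0039 ± 0.07, Agpat1, which acylates lysophosphatidate, at -0.07 ± 0.10 and Agpat4 at -0.01 ± 0.11. Lipid droplet proteins and lipases had 9 of 11 above 0 (median 0.05), with Pnpla2, the adipose triglyceride lipase, at 0.01 ± 0.17, the droplet coat gene Plin2 at -0.13 ± 0.21 and Plin3 at 0.05 ± 0.07. Plin4, Plin5, Cidea, Fitm1 and G0s2 did not pass the count filter, nor did Mogat1, Gpat2 and Acsl6. In the 6 lists other than the synthetases, the groups overlapped for every tested gene.

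Of all tested genes, 17.8% had their 2 highest libraries in Degs2_KO replicate 3 and WT replicate 1. In the lists this was so for 6 of 10 genes of citrate, acetyl-CoA and NADPH supply (Acss1, G6pdx, Idh1, Pgd, Pgls and Slc25a1) and 6 of 11 of lipid droplets and lipases (Cidec, Fitm2, Hilpda, Lipe, Mgll and Pnpla2). It was so for 4 of 12 other glycerolipid enzymes, 3 of 7 genes of the carboxylase and AMPK list, 2 of 7 of mitochondrial synthesis, 1 of 10 of the SREBP list and 0 of 4 synthetases. The pair held the 2 lowest values for 2 genes of mitochondrial synthesis and 1 of the SREBP list, and for none in the other 5 lists. The genes in brackets were named after their values were seen, and these counts were not tested.

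Among the genes whose log2 CPM was most like that of Fasn over the 8 libraries were Mroh2a, Lyve1, Gtpbp3 and Kdm5c, with Pearson r from 0.903 to 0.93, of 13126 named genes compared. They are a description of these libraries, which share the split above. Leaving out Degs2_KO replicate 3 and WT replicate 1, r was 0.94 for Mroh2a, 0.845 for Lyve1, 0.797 for Gtpbp3 and 0.864 for Kdm5c. Lyve1 was low, at a mean of 2.71 CPM. Mroh2a, Lyve1, Gtpbp3 and Kdm5c were picked for a high r among 13126 genes. Their r without the pair reuses libraries of that pick, so it is no check. A lower r of the other members, which were named beforehand, is therefore not a result. For these members r over the 8 libraries was 0.52 for Acly, 0.43 for Srebf1, 0.33 for Acss2, 0.15 for Acaca, -0.18 for Gpam, -0.18 for Lpin1, -0.19 for Me1, -0.51 for Dgat1 and -0.65 for Dgat2. Without Degs2_KO replicate 3 and WT replicate 1 the sign turned for Me1 (0.64), Lpin1 (0.53), Acss2 (-0.32) and Acly (-0.03). It did not for Srebf1 (0.49), Acaca (0.09), Dgat1 (-0.04), Dgat2 (-0.21) and Gpam (-0.51).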

How the data were processed

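The authors worked with TopHat2 2.0.10, cutadapt 1.9, Cuffdiff and Cufflinks 2.1.1 on mm10, per the submitters' processing notes; the sources used here do not give the annotation, strand setting or order of steps. The deposited values, per the file headers, are an estimated count for each gene in each library, and each library had been scaled by 1 factor (the step of 1 fragment is 0.871 to 1.31). The deposited status words mark failed estimates: 47 genes with FAIL or HIDATA in any library were left out. Estimated counts were rounded, genes filtered with filterByExpr (minimum count 10, total 15; 16132 genes), and the genotypes compared with edgeR 4.0.16 (TMM, quasi-likelihood F test, group only, 2-sided, threshold 0.05) in R 4.3.3. On simulated data of 15918 genes for this comparison, edgeR called 21.5%, 63.1% and 84.4% of genes changed 1.5-fold, 2-fold and 4-fold. There were 65, 65 and 64 such genes, and 7 of 116 calls were false. Each gene was drawn on its own, without the split that many real genes share. The percentages therefore need not hold for the real table, where Degs2 at -1.07 had an edgeR adjusted p of 0.796.

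Symbols came from a table of gene IDs (54074 of 54141 matched), and Hsd17b8 was matched through a synonym. Positions and transcript lengths are from GENCODE M21 (GRCm38, the assembly called mm10); lengths are those of the APPRIS principal transcript. Named genes were the members, the 3 tested genes of each pathway list with the highest mean CPM and the 5 most like Fasn, of which 1 is not reported here; exceptions are marked. The members and lists were chosen with earlier results of these data known. Promoter windows are from RefSeq. Alternatives were other normalizations, DESeq2 1.42.0, limma-trend (limma 3.58.1), other filters, blocks and libraries left out.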

Additional observations from a re-analysis of the deposited data

Results flagged for a closer look

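Within the Degs2_KO group, replicate 3 lay apart from the other 3 libraries in 3 marker sums, each by a gap larger than Dixon's 95% critical value for 4 samples. Its posterior gut markers summed to 140 CPM, beside 365 to 401 CPM in the other Degs2_KO libraries. Its small intestine and proximal gut markers summed to 447 CPM, beside 126 to 150 CPM. Its smooth muscle markers summed to 0.192 CPM, beside 0.451 to 0.458 CPM, all near the level of a few fragments. No value of Fasn, Acaca, Acly, Srebf1, Me1, Acss2, Gpam, Lpin1, Dgat1 or Dgat2 was flagged in this way in either genotype. Of 62 groups of 4 examined, 3 were flagged, and chance flags about 1 in 20 groups.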

How the results depend on the processing

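No member passed the adjusted threshold in any of 19 alternatives; the lowest adjusted p of a member was 0.879, for Me1. edgeR and limma-trend called 0 genes throughout, and DESeq2 called 2, Degs2 and Dlk1. The unadjusted count ran from 79 to 782 genes. The members' median log2 fold change lay between -0.053 and 0.041, all shifts under the between-library SD of 0.0717. Acaca and Gpam kept their sign; with 1 library left out Gpam spanned -0.32 to -0.08, and its share -4.19 to -0.9 points. Without WT replicate 4, 1 member, Gpam, was under the unadjusted threshold of 0.05, with an edgeR adjusted p of 0.9996. In that fit 161 of 16320 tested genes were under the unadjusted threshold. The adjoining ID block pairs libraries by adjoining ID numbers in the labels and leaves out WT replicate 4 and Degs2_KO replicate 2. With it, Lpin1 was at 0.11, Dgat1 at 0.03 and Dgat2 at 0.01. Leaving out Degs2_KO replicate 2 alone, without a block, put Lpin1 at 0.04, Dgat1 at -0.02 and Dgat2 at 0.02. With the stricter filter, and with Degs2_KO replicate 3 and WT replicate 1 both left out, Srebf1 was at -0.01 each. With 1 library left out the log2 fold change spanned -0.08 to 0.23 for Fasn, -0.04 to 0.18 for Acly, -0.05 to 0.05 for Srebf1, -0.33 to 0.93 for Me1, -0.07 to 0.06 for Acss2, -0.46 to 0.07 for Lpin1, -0.11 to 0.03 for Dgat1 and -0.32 to 0.13 for Dgat2. The cause of these sign changes was not tested. Differences in share, in percentage points, spanned -3.27 to 1.23 for Dgat2, -2.36 to 4.45 for Acaca, -1.03 to 0.238 for Srebf1, -1.59 to 0.23 for Lpin1, -1.33 to 4.21 for Me1 and -2.23 to 1.91 for Acss2 with 1 library left out, and those of Acaca and Srebf1 were -0.55 and -1.39 with both left out. The alternatives with the authors' scaling undone, with merged exons and for shares were chosen after seeing the data.

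The labels do not say whether same-numbered libraries belong together. Their deviations from the group means correlated at -0.425, 0.444, -0.56 and -0.102. These values cannot decide it, because the libraries that stood apart carry different numbers. With the replicate number as a block, edgeR called 0 genes (99 at an unadjusted p under 0.05) and 0 members, and the members' median was -0.003. The lowest scaled count of any member in a library was 219, for Lpin1.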
